A study of Mus musculus with 6 samples.

Results

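In mouse embryonic fibroblasts treated with CD, 4740 regions of H3K27ac were called at the boundary of a protein-coding gene, in places where no DMSO region and no Flag-Rxra peak was called. They were 4.54% of the 104437 CD regions on chromosomes 1 to 19, X and Y. A gene boundary here is either annotated limit of a RefSeq gene, its start or its end, with a window reaching 1 kb to both sides. A region was taken when it touched such a window by 1 bp or more, overlapped no region of the DMSO list and overlapped no Flag-Rxra peak of either replicate. The regions were chosen by these called overlaps in the CD, DMSO and Flag-Rxra lists, so being CD-only, near a boundary and free of Flag-Rxra is no finding about them.

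The series has 6 CUT&Tag samples of OG2X129 fibroblasts in 3 groups of 2: H3K27ac after CD, H3K27ac after DMSO, and Flag after overexpression of Flag-tagged Rxra. The treatment note shared by all samples names chemical reprogramming to pluripotent cells, and the series title names CD3254, an agonist of the retinoid X receptors. The day of sampling, and whether CD or DMSO was given to the Flag-Rxra cells, are not stated in the labels. OG2 mice are known to carry a GFP reporter under Pou5f1 sequence. Both replicates of an H3K27ac group share 1 deposited list, so no value below has a replicate error and no test between CD and DMSO was possible.

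H3K27ac is acetylation of lysine on the tail of histone H3, laid down by the acetyltransferases p300 and CBP on nucleosomes that flank active promoters and enhancers. RXR proteins bind DNA as dimers, often with a partner such as LXR, PPAR or a retinoic acid receptor, at direct repeats of the half-site AGGTCA. With ligand they exchange corepressors for coactivators, among them the p160 proteins and p300. In reprogramming, fibroblast enhancers lose acetylation while enhancers and promoters of pluripotency genes gain it.

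Promoter sequence describes only those gene starts where a region overlapped the promoter itself, while the regions had 2130 links to a start window. RefSeq (GRCm38.p6, the assembly of mm10) gave 21238 promoters of 300 bases for 17469 protein-coding genes, and a CD-only region without Flag-Rxra overlapped 450 of them. Among the genes of the strongest regions and those named by rule from the gene lists, the overlap held at Mrpl53, Ncoa1 and Cxcl2. In 87 cases the region held the whole promoter. The 3 of these from different regions with the highest −log10 q were Ftsj1, Kbtbd12 and Sptlc1, shown here although they were chosen after their values were seen. Each line gives the 250 bases before the start, 5′ to 3′ along the gene, and capitals mark letters of the 13 motifs searched on either strand.
Mrpl53 (chr6:83108858-83109107, plus strand): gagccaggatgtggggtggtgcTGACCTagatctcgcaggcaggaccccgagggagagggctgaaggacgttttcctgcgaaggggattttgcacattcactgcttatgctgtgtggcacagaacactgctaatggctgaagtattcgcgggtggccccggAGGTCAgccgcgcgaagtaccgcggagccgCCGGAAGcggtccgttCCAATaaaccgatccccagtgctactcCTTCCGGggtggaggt
Ncoa1 (chr12:4477183-4477432, minus strand): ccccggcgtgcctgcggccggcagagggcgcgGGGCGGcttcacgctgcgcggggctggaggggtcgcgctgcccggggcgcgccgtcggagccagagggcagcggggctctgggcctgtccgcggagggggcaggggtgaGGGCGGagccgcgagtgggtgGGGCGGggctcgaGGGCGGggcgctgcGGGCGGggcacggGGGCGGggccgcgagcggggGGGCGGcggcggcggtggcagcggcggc
Cxcl2 (chr5:90903649-90903898, plus strand): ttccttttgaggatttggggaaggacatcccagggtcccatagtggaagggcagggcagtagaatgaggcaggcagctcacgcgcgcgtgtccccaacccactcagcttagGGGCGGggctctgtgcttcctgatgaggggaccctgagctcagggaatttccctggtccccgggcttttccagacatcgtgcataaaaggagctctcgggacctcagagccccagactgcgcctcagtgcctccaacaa
Ftsj1 (chrX:8252407-8252656, minus strand): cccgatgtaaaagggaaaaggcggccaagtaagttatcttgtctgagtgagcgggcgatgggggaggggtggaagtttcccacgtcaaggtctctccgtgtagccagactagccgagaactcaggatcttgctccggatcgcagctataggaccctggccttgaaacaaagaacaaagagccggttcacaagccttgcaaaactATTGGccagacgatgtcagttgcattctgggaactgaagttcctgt
Kbtbd12 (chr6:88627430-88627679, minus strand): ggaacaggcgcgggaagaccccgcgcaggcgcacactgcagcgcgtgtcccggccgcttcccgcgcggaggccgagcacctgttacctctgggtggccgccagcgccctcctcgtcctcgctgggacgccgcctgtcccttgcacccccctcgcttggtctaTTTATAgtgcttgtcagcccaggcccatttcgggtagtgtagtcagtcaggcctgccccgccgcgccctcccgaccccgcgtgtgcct
Sptlc1 (chr13:53377362-53377611, minus strand): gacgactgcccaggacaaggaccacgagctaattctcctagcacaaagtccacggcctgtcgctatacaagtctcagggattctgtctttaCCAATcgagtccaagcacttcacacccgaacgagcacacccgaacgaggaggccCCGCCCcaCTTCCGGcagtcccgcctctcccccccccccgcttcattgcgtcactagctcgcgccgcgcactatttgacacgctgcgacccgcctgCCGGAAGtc

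The 6 promoters differed widely in base composition. Ncoa1, which encodes a p160 coactivator of nuclear receptors, had a GC content of 85.6% and 7 copies of the SP/KLF letters GGGCGG. Its region (chromosome 12, 4477327 to 4477505) had a fold of 3.46 and a −log10 q of 1.63 and reached from 323 to 145 bases before the start used in the promoter table. Mrpl53, a protein of the mitochondrial ribosome, held 2 AGGTCA half-sites, at 228 and 89 bases before the start, in opposite orientation. The region covered only the outermost of the printed bases (chromosome 6, 83108715 to 83108873, fold 4.06, −log10 q 4.02). The region at Cxcl2, a neutrophil chemokine, began 19 bases after the start and ended 170 bases after it, so it lay next to the printed stretch. Ftsj1, a tRNA methyltransferase gene, had a region 998 bp wide with a fold of 4.30 and a −log10 q of 2.86. Its GC content of 52.4% and its CpG ratio of 0.802 were the lowest of the 3 that lay wholly inside a region. Sptlc1, a subunit of serine palmitoyltransferase, held the ETS letters CCGGAAG at 97 and 9 bases before its start.

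As counts, CD-only regions of this kind outnumbered the equivalent DMSO-only regions by 1.41 times, with 4740 against 3351. The whole CD list was longer than the DMSO list by nearly the same factor, 1.38 (104437 against 75482 regions). When both lists were held to the same number of strongest regions, 3496 CD-only and 3491 DMSO-only regions were left, a ratio of 1.00. Lists of equal length leave similar numbers of regions without overlap by construction. A ratio near 1.00 was therefore largely fixed in advance and is no test of the excess. Of all CD regions, 86.1% overlapped no DMSO region, and of those at a boundary without Flag-Rxra, 84.6% did not.

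Boundaries held a small part of the CD-only regions. Of the 85175 CD-only regions without Flag-Rxra, 5.57% (95% interval 5.41 to 5.72) touched a window, against 6.09% (5.9 to 6.3) of DMSO-only regions and 8.23% (7.71 to 8.77) of CD regions shared with DMSO. The windows covered 79.2 Mb, which is 2.91% of the chromosomes. A share of bases and a share of regions that touch a window by 1 bp are unlike measures, so no enrichment is read from them. Of the 6207 CD-only regions at a boundary, 76.4% (75.3 to 77.4) had no Flag-Rxra peak, against 63.6% (62.3 to 64.9) for DMSO-only regions and 33.8% (31.9 to 35.6) for shared CD regions. All intervals are exact binomial (Clopper-Pearson) and cover counting error only, since neighbouring regions are not independent.

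The regions were narrow and close to the threshold of the list. Fold is the enrichment of a region over the background of the authors' peak caller, and −log10 q is its significance there, with a floor of 1.00 in the CD list. The median −log10 q was 1.38, with quartiles of 1.19 and 1.68, and only 538 regions (11.4%) reached 2 and 4 reached 5. The fold had a median of 3.08 and quartiles of 2.93 and 3.31, between extremes of 1.84 and 8.25. The median width was 283 bp (quartiles 190 and 487), and 106 regions were 1000 bp or wider. DMSO-only regions had a median width of 311 bp and a median −log10 q of 1.46. Shared regions at a boundary without Flag-Rxra had 386 bp and 1.47, and CD-only regions under a Flag-Rxra peak 393 bp and 1.47. CD-only regions away from boundaries without Flag-Rxra were narrower still, at 249 bp, with a median −log10 q of 1.36 and 11.6% at 2 or more, so small size is not particular to boundaries. Fold and −log10 q of the CD and DMSO lists come from separate calls, so those of DMSO-only regions stand here for orientation only.

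**Figure D1:**
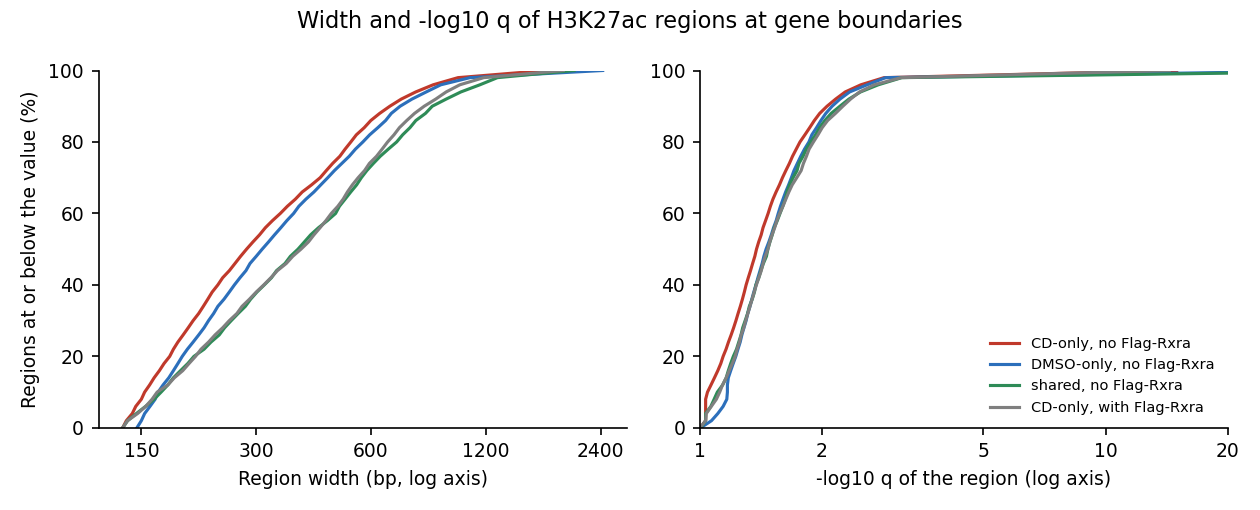
Cumulative share of regions (percent) by width (left, bp, log axis) and by −log10 q (right, log axis, shown to 20) for 4 classes of H3K27ac regions at gene boundaries. CD-only regions without Flag-Rxra (red) lie to the left of the other classes in width, with a median of 283 bp, and most lie below a −log10 q of 2.

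CD-only regions without Flag-Rxra lay at gene ends as often as at gene starts. Strand came from the promoter table, which covered 17492 of the 21887 protein-coding genes. Of the 3708 regions whose genes all had a strand, 48.5% (46.9 to 50.1) touched start windows only, 46.9% end windows only and 4.58% both kinds. DMSO-only regions without Flag-Rxra divided much alike, at 51.8% start only and 43.6% end only. Shared regions without Flag-Rxra leaned to starts, at 67.4% (63.7 to 70.9). Under a Flag-Rxra peak, 88.3% of CD-only regions (86.3 to 90.1), 89.3% of DMSO-only regions and 92.3% of shared regions touched start windows only. The rule removed regions under a Flag-Rxra peak, and most of those removed lay at starts.

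**Figure D2:**
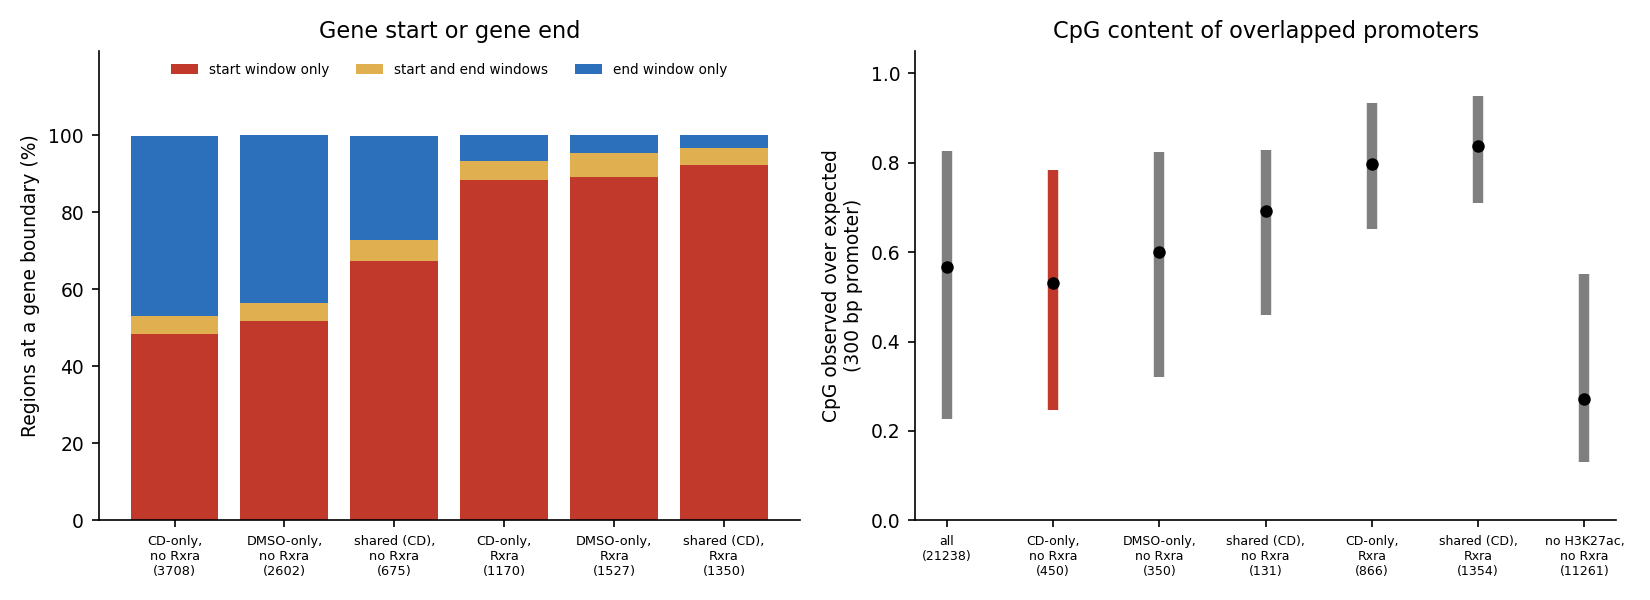
Left, share of regions (percent, stacked to 100) that touched only start windows, only end windows or both, by class, with the number of regions whose genes all have a strand. Right, median (dot) and quartiles (bar) of the CpG ratio of the promoters each class overlapped, with their number. CD-only regions without Flag-Rxra divide evenly between starts and ends, while classes with Flag-Rxra lie at starts in 88.3% or more of cases.

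Around the start, these regions were spread widely, with no summit on the start itself. Of 2130 links of a region to a gene start, 16.7% had the region's midpoint within 250 bp of it, and of 2078 links to a gene end 16.4% did. Bins of 200 bp held between 6.24% and 8.59% of the start links from 1000 bp upstream to 600 bp downstream. The bin from 600 to 800 bp downstream held the most, 12.3%. CD-only regions under a Flag-Rxra peak had 46.4% of midpoints within 250 bp of the start. The rule removed those regions, so the lack of a summit at the start is in part set by the rule. Shared regions without Flag-Rxra peaked downstream, with 15.6% of links between 400 and 600 bp after the start, and had 12.8% within 250 bp. The annotated start or end itself lay inside 570 of the 4740 regions (12.0%), against 13.5% for DMSO-only regions and 38.0% for CD-only regions under a Flag-Rxra peak.

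**Figure D3:**
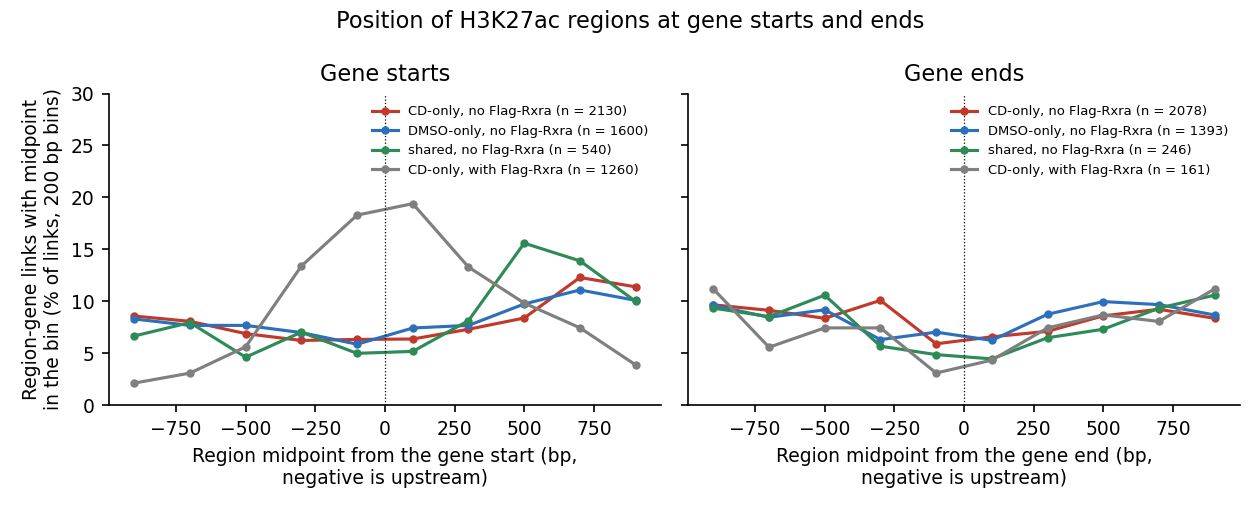
Share of region-gene links (percent per 200 bp bin) by the distance of the region's midpoint from the gene start (left) and the gene end (right), in bp along the gene, for 4 classes, n being links. CD-only regions without Flag-Rxra (red) run between 6.24% and 12.3% per bin at starts, where regions under Flag-Rxra (grey) reach 19.4%. Links with a midpoint more than 1000 bp away count in n but are not drawn, and their share differs between classes.

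Regions at starts and at ends were alike in size and strength. The 1799 at starts only had a median width of 284 bp, a median fold of 3.08 and a median −log10 q of 1.39. The 1739 at ends only had 275 bp, 3.08 and 1.37. At a −log10 q of 2 or more stood 11.8% of the former and 11.3% of the latter.

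Under the rule as set, promoters reached by these regions had a median CpG ratio close to that of promoters at large. The CpG ratio is the number of CpG pairs over the number expected from the C and G content, and CpG islands, which accompany most broadly expressed genes, have high values. The 450 promoters under a CD-only region without Flag-Rxra had a median of 0.531 (95% interval 0.439 to 0.589), and all 21238 had 0.567. These 450 were 2.12% of all promoters, and DMSO-only regions reached 350 promoters (1.65%) with a median of 0.601 (0.559 to 0.648). With shared regions without Flag-Rxra the median was 0.692 (0.621 to 0.727), and with CD-only regions under a Flag-Rxra peak 0.797 (0.781 to 0.815). Promoters with neither H3K27ac nor Flag-Rxra stood at 0.272. With regions of a −log10 q of 2 or more, the median under CD-only regions was 0.62 (0.407 to 0.784). The rule left out regions under a Flag-Rxra peak, while all promoters include those with such a peak, so the median depends on the rule. Leaving out only regions under a peak found in both replicates gave 0.65 (0.606 to 0.694). Counting regions within 1 kb as shared gave 0.45 (0.412 to 0.542).

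The letters of the half-site AGGTCA, on either strand, occurred in 66 of the 450 promoters (14.7%, 11.5 to 18.3) and in 14.7% of all promoters. The SP/KLF letters GGGCGG occurred in 47.1% of the 450 and in 46.2% of all, against 70.1% of promoters with a CD-only region under Flag-Rxra. The ETS letters CCGGAAG stood at 10.2% against 11.6%, and those of NF-Y, CCAAT, at 34% against 38.2%. The letters TATAAA of the core promoter element were found in 10.7% of the 450 promoters and in 12.6% of all promoters. The letters GGAATG, read by TEAD factors, were found in 16.0% of the 450 promoters and in 13.6% of all. The E-box CACGTG was found in 10.2% of the 450 promoters and in 7.84% of all. AP-1 (TGANTCA) occurred in 20 of the 450 (4.44%, 2.74 to 6.78), in 6.99% of all promoters and in 8.57% (5.86 to 12.0) of those with a DMSO-only region. CRE (TGACGTCA) was found in 12 of the 450 (2.67%, against 2.24% of all). The other 4 motifs searched are given by name. The shares among the 450 and among all promoters were 1.11% and 1.21% for YY1, 0.444% and 0.16% for NF-κB, and 2.22% and 3.34% for the ISRE core. NRF1 stood at 0.222% (0.00563 to 1.23), which is 1 promoter, against 1.33% of all. All promoters include those with a Flag-Rxra peak. Promoters with neither H3K27ac nor Flag-Rxra held GGGCGG in 27% of cases, CCGGAAG in 4.46% and CACGTG in 5.33%, below the 450. They held TATAAA in 18.2% and AP-1 in 8.84%, above the 450. Their shares for AGGTCA (17.3%), CCAAT (36.1%) and GGAATG (15.4%) lay inside the intervals of the 450. A match of letters is not a binding site, and GGGCGG can overlap other GC-rich motifs.

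How often genes with a CD-only region had the other marks depended on the window and on how peaks were counted. The 4740 regions touched windows of 4718 of 21887 protein-coding genes (21.6%), and DMSO-only regions without Flag-Rxra touched windows of 3438 (15.7%). Of the 4718 genes, 39.0% (37.6 to 40.4) also had a DMSO region elsewhere in their windows, against 35.8% of all genes. A Flag-Rxra peak lay elsewhere in the windows of 57.1% (55.7 to 58.5), against 49.5% of all genes. The alternatives that follow also changed which regions were taken, and so which genes were counted. Windows of 500 bp gave 2579 genes, and 24.8% had a DMSO region, against 27.8% of all genes. A Flag-Rxra peak stood at 44.8% of them, against 44.9%. Windows of 2 kb gave 7875 genes, and 55.5% had a DMSO region, against 45.8% of all genes. A Flag-Rxra peak stood at 67.1% of these, against 55.2%. Counting only DMSO regions with a −log10 q of at least 2 gave 5314 genes, and 8.81% had one, against 8.84% of all genes. Counting only Flag-Rxra peaks found in both replicates gave 5203 genes, and 35.4% had such a peak, against 32.6%. The number of genes with a CD-only and a DMSO-only region without Flag-Rxra was 887, which is 18.8% of the former genes and 25.8% of the latter. Of the 4718 genes, 33.2% had neither a DMSO region nor a Flag-Rxra peak, against 42.8% of all genes. Of the 5156 single windows with a CD-only region, 18.8% also held a DMSO region, against 20.2% of all windows, and in 557 (10.8%) DMSO covered more bases than CD.

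The nearest DMSO region lay a median of 4514 bp away (quartiles 1441 and 11085), and 19.4% of the regions had one within 1 kb. The nearest Flag-Rxra peak lay a median of 4438 bp away, and 28.3% had one within 1 kb. For CD-only regions away from boundaries these medians were 6474 bp and 10544 bp. At the edges of the rule, the regions at Trit1, Ssbp1 and Armcx1 lay 1 base from a DMSO region, and those at Acod1, Smad2 and Idh2 overlapped one by 2 bases and were left out. Regions at Fabp3 and Zfp939 touched a Flag-Rxra peak without overlap and 1 at Fzd7 lay 1 base off, while those at Atp2a2, Mei1 and Mybl1 overlapped a peak by 1, 3 and 4 bases and were left out. Regions at Gm11541, Gstz1 and Scai reached 1 base into a window, and those at Fbxw28, Ccdc86 and Tdrd7 missed one by 0 or 1 bases. On both sides of these edges the folds ran from 2.77 to 4.07.

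The strongest region by −log10 q lay 768 bp upstream of the start of Kcna2, a voltage-gated potassium channel gene. This region (chromosome 3, 107089911 to 107090115) had a fold of 8.25 and a −log10 q of 14.97. No DMSO region was called within 6830 bp of it and no Flag-Rxra peak within 26965 bp. The next was a region of 222 bp in the windows of Ctxn1 and Timm44 (chromosome 8, 4260142 to 4260363), with a fold of 4.66 and a −log10 q of 6.48. It lay inside Timm44, whose product moves proteins into mitochondria, 411 bp from that gene's end. Kalrn followed with a region 63 bp past its end (fold 5.33, −log10 q 5.43), and Arpc1a, a subunit of the actin-branching Arp2/3 complex, with one 125 bp inside its start (4.96 and 5.32). These 4 were the only regions at 5 or more.

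The other regions among the 15 strongest had −log10 q of 4.01 to 4.79 and lay mostly at gene ends. They lay at the ends of Irak2, a kinase of Toll-like receptor signalling (fold 4.42), Gnl1, Kcnh6, Cep135, Creb1, the cAMP response factor (5.01), Zfp207, Gm26637 and Col23a1. Zfp982 and Mrpl53 had theirs at the start, and for Wwox and Ccdc142 the strand was not in the table. All 15 were 388 bp wide or less. At Col23a1 the same window held 292 bases of DMSO region against 83 of CD. At each of the other genes no DMSO region stood in the window concerned.

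The widest regions were weaker. That at Tal1, a transcription factor of blood and endothelial progenitors, was 1716 bp wide (chromosome 4, 115056544 to 115058259), began 118 bp inside the start and had a fold of 3.13 and a −log10 q of 1.33. The other 7 of the 8 widest lay at AI987944, Tmem164, Gm5767, Dmap1, Ebag9, Gm10340 and Fam207a, with widths of 1344 to 1622 bp and −log10 q of 1.20 to 1.97. By bases covered in its windows, Bhlha9 led with 1782 bases from 1 region. It was followed by Olfr9 (1757), Bloc1s1 (1673), Gnat1 (1663), Dnase1l1 (1637), Midn (1588), Mt3 (1574) and Cebpe (1557). DMSO regions covered 460 bases in the windows of Mt3, 237 at Dnase1l1, 215 at Midn and none at the other 5. Bhlha9, Olfr9, Mt3 and Cebpe are short genes whose start and end windows overlap. CD or DMSO bases in the overlap counted in both windows, so these values are not lengths of single regions. Different regions lay at the start and the end of 346 genes, among them 7 of the genes listed below: Nlrp3, Nr1i2, Hdac3, Csf1r, Cpt1a, Exosc10 and Gdf3.

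The named gene lists hold 337 matched genes, and 24.0% of them had a CD-only region without Flag-Rxra, close to the 21.6% of all protein-coding genes. DMSO-only regions stood at 19.6% of the listed genes, against 15.7% of all. Per list the counts were small, and they are given as counts with no test.

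Among genes that carry the retinoid signal, 5 of 19 receptors had a CD-only region, and 5 had a DMSO-only one. Rxra itself had one 186 bp before its end (chromosome 2, 27762767 to 27763133, fold 2.67, −log10 q 1.18), with a Flag-Rxra peak 315 bp away. Vdr, the vitamin D receptor, and Thrb, a thyroid hormone receptor, had one inside the gene near the start (folds 3.42 and 3.47). Nr1i2, the xenobiotic receptor PXR, had wide regions of 942 bp at the start and 1081 bp at the end (folds 3 and 2.87). At the start of Rarg, a retinoic acid receptor, the window held 600 DMSO bases and 73 CD bases, so that DMSO covered more there.

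Of 12 coregulators, Ncoa1, Med1 and Hdac3 had a CD-only region, against 1 (Med1) with a DMSO-only one. Hdac3, the deacetylase of the NCoR corepressor complex, had 2 regions, with folds of 3.4 and 2.76, one at each boundary. Of 25 target genes of RXR dimers, 8 had a CD-only region and 4 others a DMSO-only one. At Mylip, the LXR target that degrades the LDL receptor, it lay 479 bp inside the start (chromosome 13, 45390221 to 45390629, fold 3.22, −log10 q 1.49), and no DMSO base was called in that window. A Flag-Rxra peak stood 250 bp away. Cpt1a, the rate-limiting enzyme of mitochondrial fatty acid oxidation and a PPAR target, had one 666 bp upstream of its start (fold 3.07) and one 791 bp past its end (3.16), with no DMSO region in either window. Scd2, a fatty acid desaturase, had the highest −log10 q of these genes, 2.03. Nr0b2 and Dhrs3 also had DMSO bases in the same window, 281 and 213.

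The RNA exosome degrades RNA from its 3′ end, and 9 of its 14 listed genes had any CD region in a window and 13 any DMSO region. Exosc10, its nuclear nuclease, was the only one of 14 members with such a region (7.14%), and 5 members had a DMSO-only region (35.7%), Exosc10 included. Its start window held a CD region of 350 bp that ended 288 bp upstream (fold 2.93, −log10 q 1.40) and a DMSO region from 251 to 483 bp downstream (fold 3.61, −log10 q 2.54). Flag-Rxra peaks of both replicates lay over the start, and that of replicate 2 overlapped the DMSO region. That DMSO region is thus not the DMSO-only region counted for Exosc10. The end window of the gene held 249 DMSO bases and a second CD-only region, of 283 bp (fold 2.93, −log10 q 1.24). Of 11 cofactors, 4 had a CD-only region and 2 others a DMSO-only one. These were Ttc37, a scaffold of the Ski complex (704 bp past its end, fold 3.83, −log10 q 2.13), Skiv2l, the Ski helicase, Zcchc7, an RNA-binding TRAMP subunit, and Hbs1l. In 3 of the 4, Zcchc7, Hbs1l and Ttc37, the region lay at the end of the gene.

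Interferon and nucleic acid sensing genes had CD-only and DMSO-only regions equally often, at 9 of 30 genes each. The CD-only set held RNA sensors Ddx58 and Ifih1, the DNA sensor Cgas and its adaptor Sting1, the factor Irf3, and Ifit3, Cxcl10, Ifnb1 and Zbp1. Ifih1 had a region 497 bp inside its start (chromosome 2, 62645573 to 62645758, fold 3.46, −log10 q 1.65), and the nearest DMSO region was 57744 bp away. At Irf3 the same window held 180 CD bases and 1225 DMSO bases. At Ifnb1 the region reached only 23 bases into the window. Both sets held Sting1 and Irf3.

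Of 31 NF-κB and inflammation genes, 8 had a CD-only region and 6 a DMSO-only one. Cxcl2 had the strongest of the 8 (chromosome 5, 90903918 to 90904069, fold 3.65, −log10 q 2.09), with no DMSO region or Flag-Rxra peak within 5 kb of the start. Nlrp3, the inflammasome sensor, had one 478 bp upstream of its start (fold 3.60, −log10 q 1.78) and one near its end (2.94 and 1.03). Cxcl1 and Ptgs2, the inducible cyclooxygenase, had theirs past the gene end. At Nfkb1 and Chuk the window also held DMSO regions, of 488 and 409 bases.

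Among 26 pluripotency genes, 6 had a CD-only region and 4 a DMSO-only one, Klf4 being in both. Klf4, a reprogramming factor, had the highest −log10 q of all listed genes, 3.62 with a fold of 3.67 (chromosome 4, 55531604 to 55531814), and 22 of the 4740 regions were at that value or above. The region began 661 bp inside the start. Its window held 651 CD bases in all and 984 DMSO bases, and the nearest DMSO region lay 62 bases away, so both lists had regions at this start. Pou5f1, the core pluripotency factor Oct4, had a region from 307 to 708 bp inside its start (chromosome 17, 35506339 to 35506740). Its fold of 1.98 was 1 of the 3 lowest of the 4740 regions, beside regions at the predicted genes Gm40367 and Gm40363 on chromosome 6. The 5 CD and 3 DMSO regions that reached within 5 kb of the Pou5f1 start all had folds between 1.89 and 2.40. Whether their reads came from the gene itself or from the Pou5f1 sequence of the OG2 reporter was not tested. Tfcp2l1, Sall4, Mycn and Gdf3 had regions of −log10 q of 1.03 to 1.43. No H3K27ac region of either list lay at the boundaries of Sox2, Nanog, Esrrb, Zfp42, Dppa2, Dppa3, Dppa4, Fgf4, Nr5a2, Lin28a, Utf1 and Nr0b1.

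**Figure D4:**
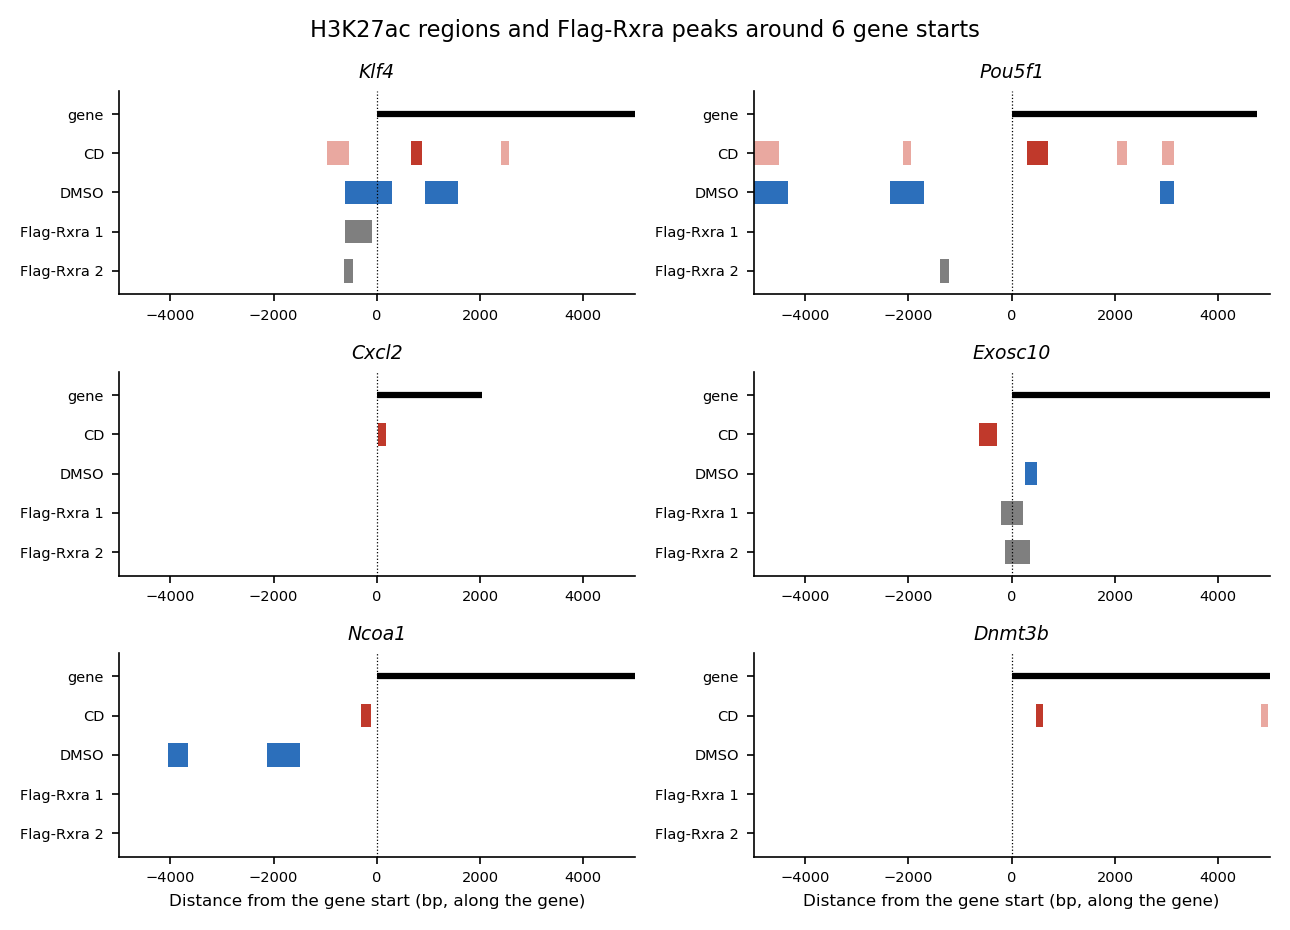
Called regions around the start of 6 genes, drawn by distance from the start in bp along the gene. CD-only regions without Flag-Rxra are dark red, other CD regions light red, DMSO regions blue, Flag-Rxra peaks of each replicate grey and the gene black. At Klf4 and Exosc10 the CD-only region lies beside DMSO regions, and at Cxcl2 and Dnmt3b it stands without a DMSO region or Flag-Rxra peak within 5 kb.

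Of 18 mesenchymal factors, 6 had a CD-only region and 3 a DMSO-only one. Tgfb1 had the strongest (542 bp upstream of its start, fold 3.23, −log10 q 2.17), and its window held 257 DMSO bases. Snai1, Twist2, Tgfb2 and the receptor gene Tgfbr2 had theirs at the gene end. Among 20 retroelement silencing genes, 4 had a CD-only and 4 others a DMSO-only region. Suv39h2, an H3K9 methyltransferase, led with a fold of 3.80 and a −log10 q of 2.23 near its end, and Dnmt3b, a de novo DNA methyltransferase, followed with 3.75 and 2.17 at 469 bp inside its start. Suv39h1 and Atrx were the other 2. Of 15 extraembryonic endoderm genes, 5 had a CD-only region (Gata4, Sox7, Hnf4a, Lama1, Lamb1) and 5 a DMSO-only one. At Sox7, Hnf4a and Lama1 the same window held 575, 655 and 320 DMSO bases. Epithelial genes counted 3 of 14 against 4, AP-1 and other somatic factors 2 of 18 (Maff, Tead2) against 3, and housekeeping genes 2 of 15 (Ppia, Eef1a1) against 2.

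**Figure D5:**
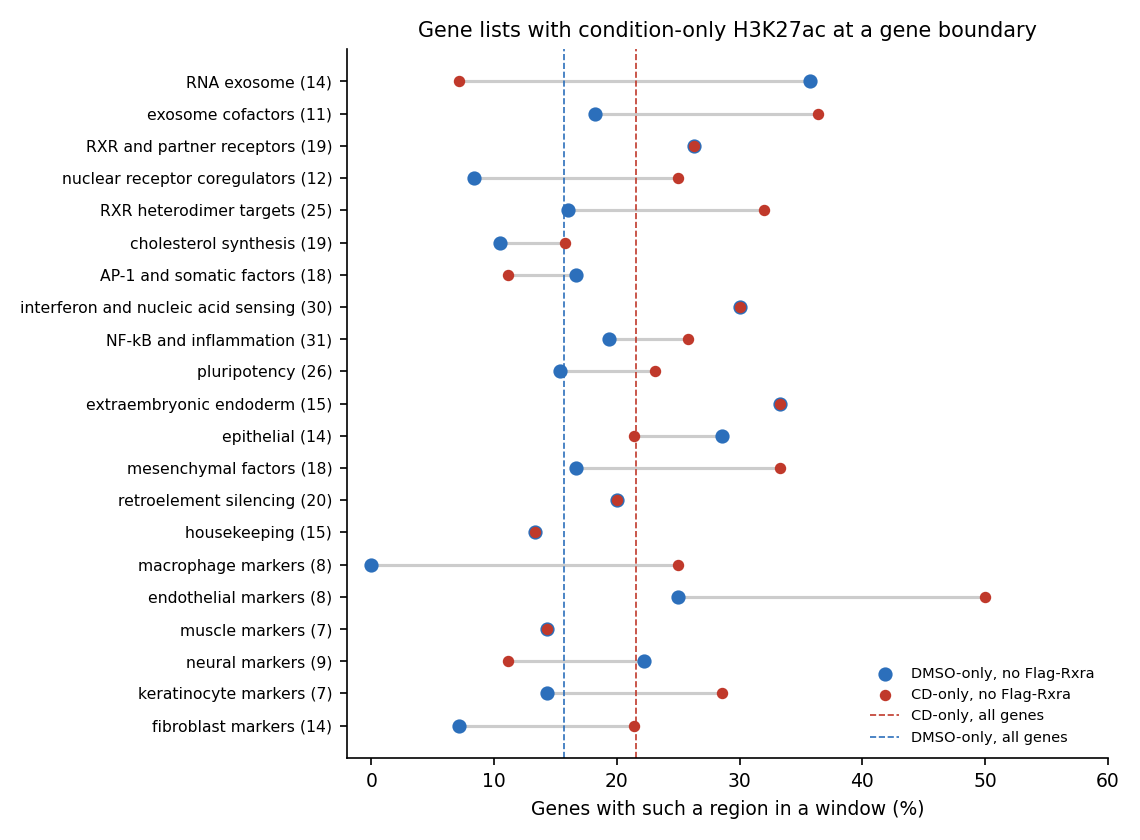
Percent of each gene list (number of genes in brackets) with a CD-only (red) or DMSO-only (blue) H3K27ac region without Flag-Rxra in a window of its start or end. Dashed lines give all protein-coding genes, 21.6% for CD-only and 15.7% for DMSO-only. The lists scatter on both sides of these lines, and with 7 to 31 genes a list, 1 gene moves a list by several percentage points.

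Markers of the labelled cell type were only partly marked. Of 14 fibroblast markers, 6 had any CD region and 5 any DMSO region at a boundary, and Col1a1, Col1a2, Thy1, Postn, Dcn, Lum and Prrx1 had neither. Fn1, Pdgfrb and Twist2 had a CD-only region without Flag-Rxra and Pdgfra a DMSO-only one. Actb, Hprt, Ywhaz and Tfrc of the housekeeping list also had no region in either list, so a missing call is read here only as no call. Markers of other cell types had CD-only regions at 2 of 8 macrophage genes (Cd68, Csf1r), 4 of 8 endothelial genes (Tie1, Vwf, Emcn, Erg), 1 of 7 muscle genes (Des), 1 of 9 neural genes (Gfap) and 2 of 7 keratinocyte genes (Krt5, Krt1). DMSO-only regions stood at 0, 2, 1, 2 and 1 of them. In the same order, 6, 1, 4, 7 and 4 genes had no region in either list, Adgre1, Itgam, Ptprc and Cdh5 among them. The Cd68 region had a fold of 2.86 and a −log10 q of 1.82 and lay inside this short gene. The part of other cells in these counts was not tested.

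Gene families differed in how often they held such regions. Olfactory receptor genes (Olfr) had one at 45 of 1110 (4.05%, 2.97 to 5.39) and a DMSO-only one at 13 (1.17%), and vomeronasal receptor genes (Vmn) at 6 and 4 of 355. Both families encode receptors of sensory neurons of the nose, and both stood below the 21.6% of all genes. Keratin genes (Krt) had a CD-only region at 17 of 53 (32.1%, 19.9 to 46.3) and a DMSO-only one at 7. Any CD region stood at 39.6% of keratin genes and any DMSO region at 13.2%, a difference that was not tested. The strongest keratin regions, named after their values were seen, lay at Krt87 (fold 3.55, −log10 q 2.09) and at the start of Krt7 (3.33 and 1.84). Solute carriers (Slc) had a CD-only region at 100 of 375 (26.7%) and zinc finger genes (Zfp) at 92 of 397 (23.2%). Genes taken by symbols that begin with Rpl or Rps stood at 24.8%, and predicted Gm genes at 157 of 1327 (11.8%). Collagen genes had one at 9 of 44 and a DMSO-only one at 13. By chromosome, 18.7% to 27.2% of genes on each autosome had a CD-only region, against 8.70% on X and none of 256 on Y. For DMSO-only regions X stood at 4.76%.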

How the data were processed

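H3K27ac and Flag CUT&Tag was done on 6 samples in 3 groups of 2. Per the submitters' processing notes, fastp 0.20.1, Bowtie2 2.2.5, MACS2 2.1.2 and deepTools 3.4.3 were used with build mm10. The authors deposited 1 list of broad regions for both replicates of each H3K27ac condition and 1 narrow peak list per Flag-Rxra replicate (28243 and 45999 peaks). How replicates were combined, the control and the depth are not given in the sources used here. Fold is the ratio over background and −log10 q the significance, both as the authors deposited them.

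Regions were intersected (1 bp or more) with 1 kb windows around both limits of 21887 RefSeq protein-coding genes with Python 3.11.15, pandas 2.3.3 and scipy 1.17.1, and the code was tested on simulated data. Motifs and CpG ratios used promoters of 250 bases before and 50 after the start. With 1 list per condition no test was made. Members and gene lists were chosen with earlier results of these data known. Of 339 listed genes 337 matched. Named by rule were the 15 strongest regions (none within 50 kb of another), the 8 widest, the 8 genes with the most covered bases, up to 6 genes per list by −log10 q, and the regions nearest each edge of the rule. Further list genes were named to give a count in full, after their values were seen. The genes of the cholesterol synthesis list are not reported here.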

Additional observations from a re-analysis of the deposited data

How the results depend on the processing

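No paired analysis was possible because both replicates of an H3K27ac condition share 1 list. Of 12 alternatives, the one without chromosomes X and Y was chosen after seeing the data, and it moved none of the 10 results. Windows of 500 bp gave 2527 regions at 2579 genes, a ratio of CD-only to DMSO-only regions of 1.35, 2.97% of CD-only regions at a boundary, 67.2% without Flag-Rxra, 24.8% and 44.8% of genes with a DMSO region and a Flag-Rxra peak, 48.9% of links at starts and a median width of 294 bp. Windows of 2 kb gave 8520 regions at 7875 genes, 10% at a boundary, 83.4% without Flag-Rxra and a width of 273 bp. Of these genes 55.5% had a DMSO region, against 45.8% of all genes, and 67.1% a Flag-Rxra peak, against 55.2%. At a −log10 q of at least 2, 538 regions at 576 genes were left, with a ratio of 1.17, 69.5% without Flag-Rxra, a width of 259 bp and a CpG ratio of 0.62. Against only the regions of the other list at or above 2, the ratio was 1.35, the boundary share 5.83%, the share without Flag-Rxra 67.6%, that of genes with a DMSO region 8.81%, that of links at starts 52.7% and the width 293 bp. Counting regions within 1 kb as shared gave 5.07% at a boundary, 78.6% without Flag-Rxra and 46.3% of links at starts. Genes with a DMSO region then stood at 28.7%, against 35.8% of all genes, and those with a Flag-Rxra peak at 53.7%, against 49.5%. With midpoints inside the window, 4.67% lay at a boundary, 74% were without Flag-Rxra and the width was 263 bp. Requiring a Flag-Rxra peak in both replicates gave a ratio of 1.35, 5.99% at a boundary, 84.7% without Flag-Rxra, 35.4% of genes with a peak, 53.8% of links at starts, 291 bp and a CpG ratio of 0.65. With 1 Flag-Rxra replicate left out at a time, the regions numbered 4999 to 5107 and the boundary share was 5.76% to 5.91%. The share without Flag-Rxra was 80.5% to 82.3%, and that of genes with a peak 47.4% to 48.2%, against 41.7% to 42.1% of all genes. The share of links at starts was 52.2% to 53.4%, and the CpG ratio 0.59 to 0.63. Without Gm and Rik genes 5.3% lay at a boundary. At equal numbers of regions the ratio was 1.00, with 5.88% at a boundary, 74.3% without Flag-Rxra and 40.6% of genes with a DMSO region, against 35.8% of all. The cause was not tested, beyond fewer or more regions entering by construction.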
